A study of Mus musculus with 12 samples.

Results

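The Nr4a genes are a family of 3 orphan nuclear receptor genes, Nr4a1 (Nur77), Nr4a2 (Nurr1) and Nr4a3 (Nor1). They were found by gene symbol in the platform annotation of a mouse whole-transcript array, where each had 1 row, and they are 3 of the 22180 genes with a row of their own. All 3 passed the filter on low values, as did 13747 genes in all. The arrays measured plantaris, a fast-contracting muscle of the calf, in male mice aged 12 weeks from which food was withheld for 3 hours. There were 12 arrays in 4 groups of 3: REDD1 knockout mice sampled 1 hour after one session of aerobic exercise, sedentary REDD1 knockout mice, wild-type mice 1 hour after such a session, and sedentary wild-type mice. Muscle was taken under isoflurane in all 4 groups. REDD1 is the product of Ddit4, an inhibitor of the growth-promoting kinase complex mTORC1 that stress induces. The labels give neither the deleted part of the gene nor whether it was lost in every tissue, and they name no pooling, litter or batch. They do not say in words that each array is a separate animal, so p-values measure the spread between these samples.

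NR4A proteins are transcription factors whose ligand pocket is filled by bulky side chains, so their activity depends largely on how much protein is made. They bind a DNA element called NBRE as monomers, and NR4A1 and NR4A2 can also pair with the retinoid X receptor, RXR. Their genes are immediate-early genes that contraction and calcium signals switch on through CREB and related factors, and in rodent muscle they have been tied to genes of glucose use and oxidative metabolism.

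In the mouse assembly GRCm38.p6, RefSeq places Nr4a1 at chr15:101253902-101274795, Nr4a2 at chr2:57106830-57124003 and Nr4a3 at chr4:48045078-48086447. The 250 bases upstream of a RefSeq transcript start of each gene are printed because the members moved together after exercise and CREB is a known regulator of the family. The windows are chr15:101266596-101266845 (plus strand) for Nr4a1, chr2:57124004-57124253 (minus strand) for Nr4a2 and chr4:48045055-48045304 (plus strand) for Nr4a3. The windows of Nr4a1 and Nr4a3 reach into the annotated bounds of their genes, which also have starts farther upstream. Capitals mark the CREB half-site TGACG on either strand, which reads CGTCA when it lies on the opposite strand. The sequences run 5′ to 3′ on the strand of the gene.
Nr4a1: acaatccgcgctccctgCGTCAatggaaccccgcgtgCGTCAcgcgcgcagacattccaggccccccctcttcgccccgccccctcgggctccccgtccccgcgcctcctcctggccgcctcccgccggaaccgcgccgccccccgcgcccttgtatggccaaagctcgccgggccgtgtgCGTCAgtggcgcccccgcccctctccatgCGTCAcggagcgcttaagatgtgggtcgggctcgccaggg
Nr4a2: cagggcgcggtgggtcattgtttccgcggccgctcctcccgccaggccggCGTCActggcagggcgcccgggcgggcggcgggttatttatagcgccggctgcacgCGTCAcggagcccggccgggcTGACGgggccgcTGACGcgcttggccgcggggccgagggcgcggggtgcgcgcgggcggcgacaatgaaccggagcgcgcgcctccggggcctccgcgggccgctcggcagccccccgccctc
Nr4a3: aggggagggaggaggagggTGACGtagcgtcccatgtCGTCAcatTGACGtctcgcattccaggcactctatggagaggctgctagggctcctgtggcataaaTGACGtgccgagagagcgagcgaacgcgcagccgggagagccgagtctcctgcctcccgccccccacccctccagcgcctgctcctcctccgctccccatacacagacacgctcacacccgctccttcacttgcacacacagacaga

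Each of the 3 windows held 4 half-sites. In Nr4a1 all 4 lay on the strand opposite to the gene, the nearest 36 to 40 bases and the farthest 229 to 233 bases before the start. In Nr4a2 they lay between 107 and 200 bases before the start. In Nr4a3 they lay between 143 and 231 bases before it, 3 of them within 201 to 231. At least 1 half-site was present in 17.8% of 32851 RefSeq windows of the same length, and 4 or more in 0.137%. The windows were rich in G and C, at 74.4% for Nr4a1, 80.0% for Nr4a2 and 63.6% for Nr4a3, against a median of 52.4% over all windows, and the half-site itself holds a CG pair. The full palindromic element TGACGTCA, present in 1.55% of windows, was in 0 of the 3. The NBRE sequence AAAGGTCA (1.34% of windows) and the CArG box of serum response factor (1.47%) were also in 0 of the 3 windows. The binding sequence of MEF2, a muscle transcription factor that responds to calcium, was in 1 of them, that of Nr4a2, and in 1.69% of all windows. Both strands were searched for every motif. These are letters in a window and not tested sites of binding.

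Values are the authors' deposited log2 values. They had medians of 4.52 to 4.60 per array, and arrays correlated with Pearson's r of 0.967 to 0.985 across all rows. All 10 listed fibre markers of fast skeletal muscle, such as Acta1 and Ckm, lay between 12.4 and 13.6 on every array, where the upper quartile of the table was 6.10. Ddit4 lay at 5.72 to 6.77 in knockout exercised arrays and 5.08 to 5.44 in knockout sedentary arrays, against 8.40 to 9.05 in wild-type exercised and 5.83 to 6.13 in wild-type sedentary arrays. It was lower in the knockout without overlap in each condition, as were 5.67% of the genes tested in exercised and 7.73% in sedentary muscle. Limma called it lower in exercised muscle (log2 fold change -2.37, adjusted p = 0.00011) but not in sedentary muscle (-0.71, adjusted p = 0.411). Knockout sedentary replicate 3 stood apart in fibroblast and matrix markers, 0.94 above the 12-array mean over the 9 tested of 10 listed genes. It also stood 0.58 above the mean in Schwann cell and nerve markers, of which 6 of 10 were tested. Wild-type exercised replicate 1 stood highest in the Schwann cell markers, at 0.80, and knockout exercised replicate 2 was next, at 0.66. The number of arrays limits the precision of every value below.

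After exercise all 3 Nr4a genes rose. Averaged over the genotypes, with 6 exercised and 6 sedentary arrays, Nr4a3 rose 4.45-fold, Nr4a2 3.04-fold and Nr4a1 1.59-fold, and limma called 3 of 3 members higher where it called 1.09% of all genes tested higher and 0.509% lower. Within each genotype all 3 also had exercised arrays above every sedentary array, a pattern that 1.44% of the genes tested showed in both genotypes. In bulk muscle, more RNA per cell and more cells that hold the RNA cannot be told apart.

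Nr4a3, the member most often linked to oxidative metabolism in mouse muscle, had log2 values of 9.19, 9.09 and 8.67 in knockout exercised arrays, against 5.62, 6.59 and 8.15 in knockout sedentary arrays. Its values were 8.56, 8.51 and 8.75 in wild-type exercised arrays, against 6.34, 6.48 and 6.66 in wild-type sedentary arrays. The lowest exercised array was at 8.51 and the highest sedentary array at 8.15, since knockout sedentary replicate 3 stood far above the other sedentary arrays and near the exercised ones. The averaged log2 fold change was 2.15 (SE 0.28, 95% interval 1.55 to 2.76, limma adjusted p = 0.000649). Among all genes tested it was the 2nd largest rise.

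Nr4a2, best known for its role in dopamine neurons, had log2 values of 6.87, 7.21 and 7.24 in knockout exercised arrays, against 5.64, 5.69 and 6.56 in knockout sedentary arrays. It had 8.54, 6.43 and 8.26 in wild-type exercised arrays, against 5.77, 5.42 and 5.85 in wild-type sedentary arrays. Wild-type exercised replicate 2 was the lowest of the 6 exercised arrays and lay below knockout sedentary replicate 3. The averaged log2 fold change was 1.60 (SE 0.28, 95% interval 1.01 to 2.20, limma adjusted p = 0.00679), the 8th largest rise of all genes tested.

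Nr4a1, which controls genes of glucose use in rodent muscle, had log2 values of 10.63, 11.06 and 10.52 in knockout exercised arrays, against 10.15, 10.12 and 10.39 in knockout sedentary arrays. In wild type it had 10.91, 10.69 and 10.84 in exercised arrays, against 9.70, 10.12 and 10.14 in sedentary arrays. Groups were separated by exercise, but the gap was narrow in the knockout, where the lowest exercised value was 10.52 and the highest sedentary value 10.39. The averaged log2 fold change was 0.67 (SE 0.10, 95% interval 0.46 to 0.89, limma adjusted p = 0.00198), the 71st largest rise.

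**Figure D1:**
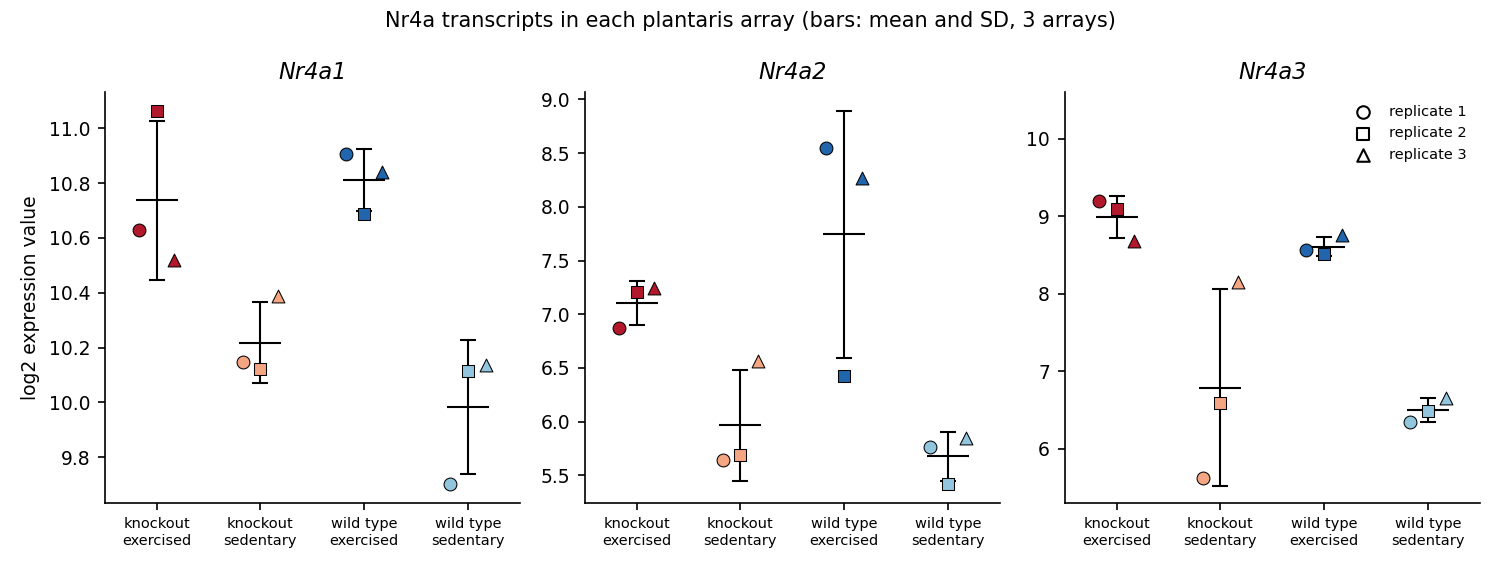
Log2 expression value (vertical axis, a separate scale for each gene) of Nr4a1, Nr4a2 and Nr4a3 in each of the 12 arrays, by group; points are arrays, shaped by replicate, and bars give the mean and SD of 3 arrays. The exercised arrays of each genotype lie above its sedentary arrays in all 3 panels, and knockout sedentary replicate 3 is the highest sedentary array for each gene.

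The measured change was smaller for Nr4a1 than for each of the other members, while Nr4a3 and Nr4a2 did not differ detectably. The averaged exercise effect on Nr4a3 exceeded that on Nr4a1 by 1.48 on the log2 scale, being 1.68 larger in the knockout and 1.28 larger in wild type. An exact two-sided permutation test, which exchanged the exercise labels within each genotype, gave p = 0.005, the smallest that its 400 arrangements allow, and an adjusted p of 0.015 over the 3 pairs of members. Nr4a2 exceeded Nr4a1 by 0.93 (0.62 in the knockout and 1.24 in wild type, exact permutation p = 0.03, adjusted p = 0.045). Nr4a3 and Nr4a2 differed by 0.55 (1.06 in the knockout and 0.04 in wild type), which did not pass (exact permutation p = 0.245, adjusted p = 0.245). The excess of Nr4a3 over Nr4a1 passed with any 1 array left out, with adjusted p no higher than 0.03. That of Nr4a2 over Nr4a1 passed with 4 of the 12 arrays left out in turn and not with the other 8, where the difference lay between 0.75 and 1.02 and the adjusted p reached 0.1125. Those 8 were every wild-type sedentary array, wild-type exercised replicate 1, knockout sedentary replicates 1 and 2, and knockout exercised replicates 1 and 3. Levels of different genes are not set against each other here, since their probes differ. The part of the probes in the size of a measured change was not tested.

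In the REDD1 knockout, limma called 1 of 3 members higher after exercise, and that was Nr4a3. Its log2 fold change was 2.20 (SE 0.40, 95% interval 1.34 to 3.06, limma adjusted p = 0.0313, n = 3 per group), a 4.59-fold rise and the 2nd largest of all genes tested, of which 0.24% were called higher. Nr4a2 had a log2 fold change of 1.14 (SE 0.40, 95% interval 0.29 to 1.99, limma adjusted p = 0.354) and Nr4a1 one of 0.52 (SE 0.14, 95% interval 0.21 to 0.82, limma adjusted p = 0.205). Neither passed, although both had exercised arrays wholly above the sedentary ones, as 7.13% of the genes tested did. The value of Nr4a3 turned on knockout sedentary replicate 3. Without that array its log2 fold change was 2.88 (limma adjusted p = 3.61e-05), and without knockout sedentary replicate 1 it was 1.615 and no longer passed (limma adjusted p = 0.0648). It also did not pass without knockout sedentary replicate 2, any 1 knockout exercised array or wild-type sedentary replicate 2, with adjusted p between 0.0593 and 0.152.

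In wild-type muscle, limma called 3 of 3 members higher after exercise, against 0.473% of the genes tested. Nr4a3 rose 4.32-fold, with a log2 fold change of 2.11 (SE 0.40, 95% interval 1.25 to 2.97, adjusted p = 0.0231, n = 3 per group). Nr4a2 rose 4.19-fold, with a log2 fold change of 2.07 (SE 0.40, 95% interval 1.22 to 2.91, adjusted p = 0.0244). Nr4a1 rose 1.78-fold, with a log2 fold change of 0.83 (SE 0.14, 95% interval 0.52 to 1.13, adjusted p = 0.0101). For all 3 the exercised arrays lay above the sedentary arrays, as for 5.75% of the genes tested. Leaving out 1 wild-type array often ended these calls. Nr4a3 did not pass without any 1 of the 6 wild-type arrays (fold changes 2.04 to 2.19, adjusted p 0.0633 to 0.123). Nr4a2 did not pass without any 1 wild-type sedentary array or without exercised replicate 1 or 3 (1.67 to 2.15, adjusted p 0.0638 to 0.138), and its log2 fold change was 2.73 without exercised replicate 2 (adjusted p = 4.44e-05). Nr4a1 did not pass without sedentary replicate 1 or exercised replicate 1 or 3 (0.69 to 0.81, adjusted p 0.0501 to 0.074). The effect averaged over genotypes passed for all 3 members with any 1 of the 12 arrays left out, with adjusted p no higher than 0.025.

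**Figure D2:**
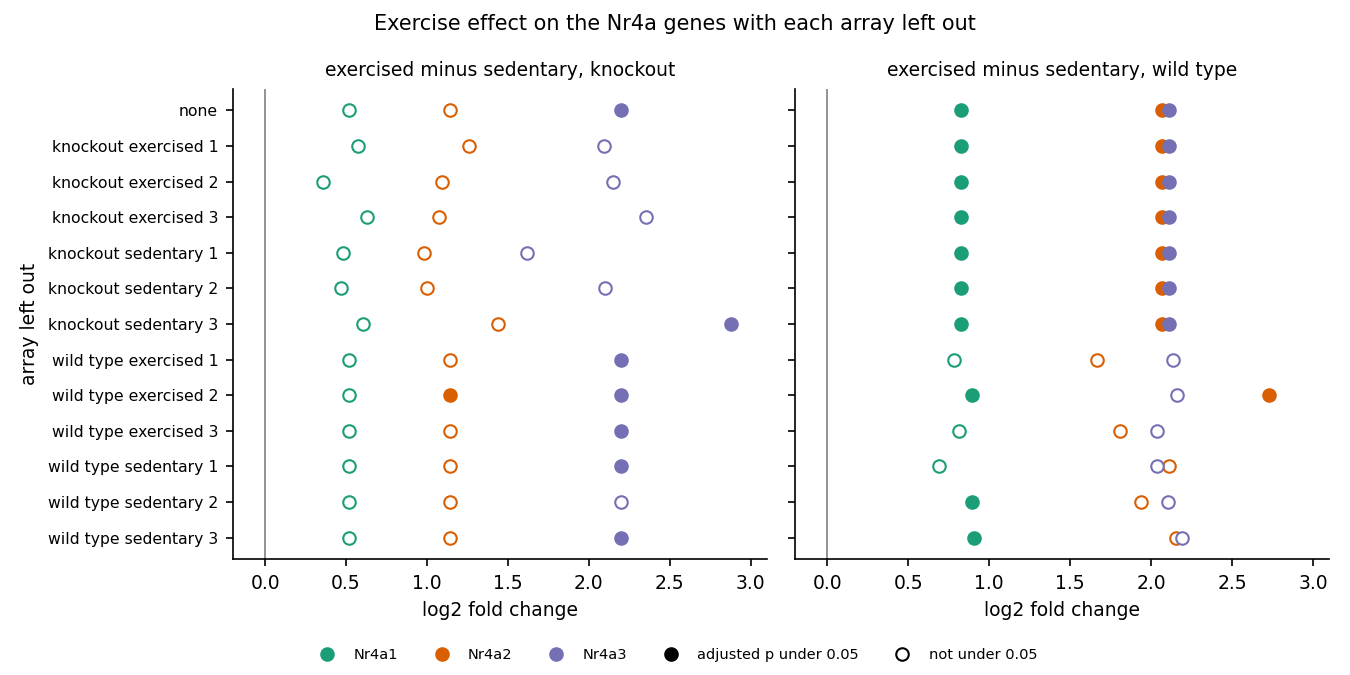
Log2 fold change of exercised over sedentary muscle (horizontal axis) for the 3 genes in the knockout (left) and wild type (right), with no array or 1 named array left out (vertical axis); filled points have a limma adjusted p under 0.05. Nr4a3 in the knockout is 2.88 without knockout sedentary replicate 3 and 1.615 without replicate 1, and Nr4a2 in wild type is 2.73 without exercised replicate 2.

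The arrays on which the members stood out were in part those on which marker genes stood out. Knockout sedentary replicate 3 was the highest sedentary array for Nr4a1 (10.39), Nr4a2 (6.56) and Nr4a3 (8.15), and its fibroblast and matrix markers were the highest of all arrays. The summed log2 level of the 9 tested markers was 82.0 to 82.6 in knockout exercised and 82.2 to 92.5 in knockout sedentary arrays, against 83.4 to 85.1 in wild-type exercised and 82.3 to 83.1 in wild-type sedentary arrays. The sum of the 6 tested Schwann cell and nerve markers was 31.6 to 37.4 in knockout exercised and 30.7 to 36.9 in knockout sedentary arrays, against 30.5 to 38.2 in wild-type exercised and 30.1 to 32.4 in wild-type sedentary arrays. Of the 10 marker lists, 3 were separated by exercise in at least 1 genotype. Among single genes tested, exercised arrays lay above sedentary arrays without overlap for 5.75% in wild type and 7.13% in the knockout. The share that lay below is not given here, and no such share was taken for list sums. The fibroblast and matrix sums above were higher in exercised than in sedentary wild-type arrays without overlap, beside the higher Nr4a values there. The sum of all 10 endothelial markers was 71.0 to 72.6 in knockout exercised and 74.0 to 74.4 in knockout sedentary arrays, against 72.1 to 72.7 in wild-type exercised and 73.5 to 74.1 in wild-type sedentary arrays, lower after exercise without overlap. The sum of all 10 smooth muscle and pericyte markers was 79.0 to 80.5 in knockout exercised and 81.5 to 83.0 in knockout sedentary arrays, lower after exercise without overlap. In wild type it was 79.9 to 84.2 in exercised and 79.7 to 81.8 in sedentary arrays, which overlapped. Knockout sedentary replicate 3 was also the highest array for macrophage and leukocyte markers, 0.32 above the 12-array mean, and wild-type exercised replicate 1 the highest for smooth muscle markers, also at 0.32. The part of these markers in the members' values was not tested. On the muscle fibre, macrophage, neutrophil, adipocyte, red blood cell and satellite cell lists, where exercised and sedentary arrays overlapped in both genotypes, arrays lay within -0.36 to 0.39 of the 12-array mean. The neutrophil values rest on 2 tested genes of 9 listed, and S100a8, S100a9, Ly6g, Retnlg, Mmp8 and Camp lay below the table's median of 4.56 on every array. The red blood cell values rest on 1 tested gene of 7, and Epb42 lay below that median on every array. These 2 lists therefore say little about neutrophil or blood content. Of the Schwann cell list the neurofilament gene Nefl also lay below the median on every array. Wild-type exercised replicate 1, with the highest Schwann cell markers, also had the highest Nr4a2 (8.54). Other arrays did not pair in this way. Wild-type exercised replicate 3 had Nr4a2 at 8.26 with those markers at -0.01 from the 12-array mean. Knockout exercised replicate 2, with the next highest markers (0.66), had Nr4a2 at 7.21. Wild-type exercised replicate 1 and knockout sedentary replicate 3 were also left out together, a choice made after the data were seen. The averaged log2 fold changes were then 2.51 for Nr4a3, 1.55 for Nr4a2 and 0.69 for Nr4a1, with limma adjusted p of 1.67e-06, 0.00411 and 0.00345.

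Whether the response depended on REDD1 was tested by the difference of exercise effects, knockout minus wild type. Of the 3 members 0 passed, nor did any other gene: limma called 0 of 13747 genes (0%). Even Ddit4, the knocked-out gene, was not called, at -1.66 (SE 0.31, unadjusted p = 8.38e-05 and adjusted p = 0.633 by limma). Its p was the smallest of all genes tested. The count of 0 is therefore not evidence that responses were equal in the genotypes. An unadjusted p under 0.05 was reached by 620 genes (4.51%), and ordinary least squares with no variance moderation called 0 as well. The difference was -0.31 for Nr4a1 (SE 0.20, 95% interval -0.74 to 0.12, unadjusted p = 0.147 by limma). It was -0.93 for Nr4a2 (SE 0.56, 95% interval -2.12 to 0.27, unadjusted p = 0.12 by limma) and 0.09 for Nr4a3 (SE 0.57, 95% interval -1.13 to 1.30, unadjusted p = 0.88 by limma). All 3 had an adjusted p of 0.997. The intervals of Nr4a2 and Nr4a3 are wide enough to hold more than a 2-fold difference in response. The value for Nr4a3 was 0.77 without knockout sedentary replicate 3 and -0.50 without knockout sedentary replicate 1. That for Nr4a2 was -1.59 without wild-type exercised replicate 2 (unadjusted p = 0.000177 and adjusted p = 0.405 by limma) and -0.53 without wild-type exercised replicate 1. It was -0.23 without wild-type exercised replicate 1 and knockout sedentary replicate 3 together. That for Nr4a1 was -0.47 without knockout exercised replicate 2 (unadjusted p = 0.0198 and adjusted p = 0.994 by limma), -0.17 without wild-type sedentary replicate 1 and -0.20 without knockout exercised replicate 3.

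Knockout and wild-type levels of the members were not separated in either condition, and 0 of 3 members were called by limma (smallest unadjusted p = 0.122), against 0.138% of the genes tested in sedentary muscle and 0.175% in exercised muscle. In sedentary muscle the knockout averaged 10.22 ± 0.15 and the wild type 9.98 ± 0.24 for Nr4a1 (SD, n = 3 each), a log2 fold change of 0.23 (95% interval -0.07 to 0.54). It was 0.093 without wild-type sedentary replicate 1 and 0.15 without knockout sedentary replicate 3. Nr4a2 averaged 5.97 ± 0.52 in the knockout and 5.68 ± 0.23 in wild type, a log2 fold change of 0.29 (95% interval -0.56 to 1.13). Nr4a3 averaged 6.79 ± 1.27 in the knockout and 6.49 ± 0.16 in wild type, a log2 fold change of 0.29 (95% interval -0.57 to 1.15). The signs for Nr4a2 and Nr4a3 rested on knockout sedentary replicate 3: without it the log2 fold changes were -0.012 and -0.39. Without knockout sedentary replicate 1 that of Nr4a3 was 0.87 (unadjusted p = 0.0142 and adjusted p = 0.452 by limma), and that of Nr4a2 was 0.45. Without wild-type sedentary replicate 2 that of Nr4a2 was 0.16.

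In exercised muscle the knockout averaged 10.74 ± 0.29 and the wild type 10.81 ± 0.11 for Nr4a1, a log2 fold change of -0.07 (95% interval -0.38 to 0.23). For Nr4a2 the knockout averaged 7.11 ± 0.21 and the wild type 7.75 ± 1.15, a log2 fold change of -0.64 (95% interval -1.49 to 0.21). That value rested on single wild-type exercised arrays. It was -1.30 without replicate 2 (unadjusted p = 7.16e-05 and adjusted p = 0.0577 by limma), -0.24 without replicate 1 and -0.38 without replicate 3. For Nr4a3 the knockout averaged 8.98 ± 0.27 and the wild type 8.61 ± 0.13, a log2 fold change of 0.38 (95% interval -0.48 to 1.24). Averaged over conditions, 0 of 3 members were called by limma (smallest unadjusted p = 0.259), against 0.546% of the genes tested. Nr4a1 and Nr4a2 shared the order of their group means, from exercised wild type, the highest, through exercised knockout and sedentary knockout to sedentary wild type. For Nr4a3 exercised knockout was highest and the other groups kept that order. In each gene the 2 exercised groups overlapped, and so did the 2 sedentary groups. Of all genes tested, the knockout lay above wild type without overlap for 5.35% and below it for 7.73% in sedentary muscle, and for 6.06% and 5.67% in exercised muscle.

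**Figure D3:**
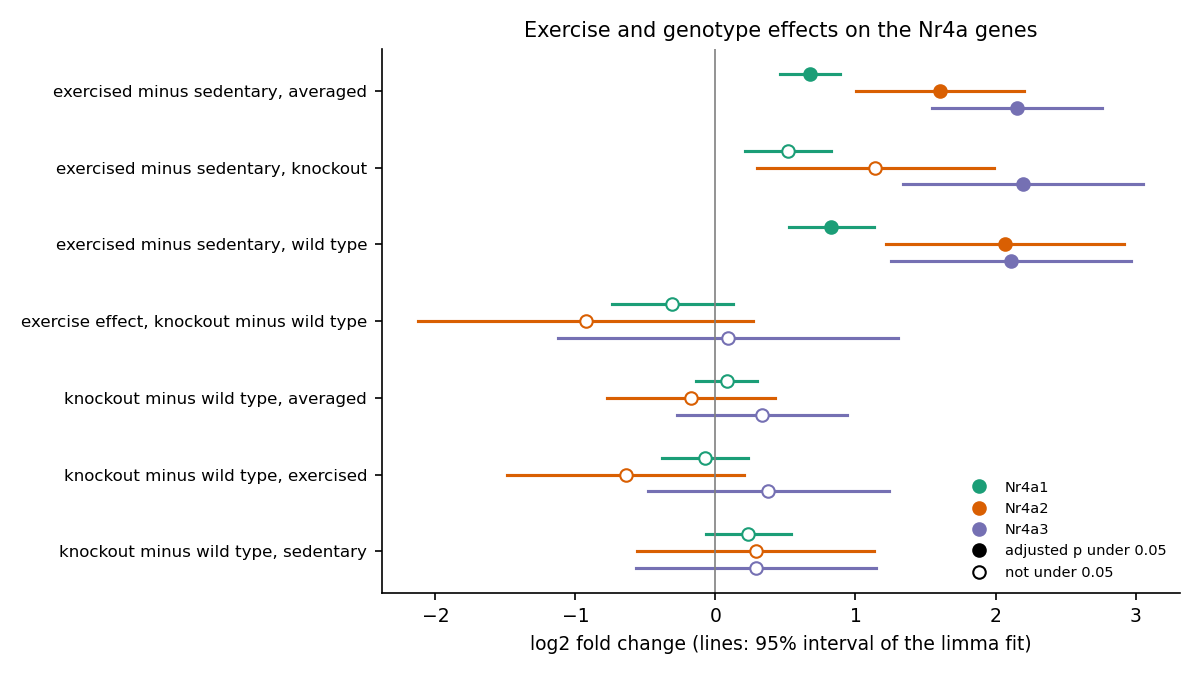
Log2 fold change (horizontal axis) of the 3 genes in 7 comparisons of the limma fit; points are estimates, lines 95% intervals, and filled points have an adjusted p under 0.05. The intervals of the averaged and the within-genotype exercise effects lie above 0 for every gene, while those of the difference of exercise effects and of knockout minus wild type include 0.

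Set against other nuclear receptors, the Nr4a genes had the 3 highest averaged exercise effects of 35 receptor genes tested. Of 45 other receptor genes listed, 32 were tested and the remaining 13 were too dim or had no row. Their median log2 fold change was -0.02, against -0.01 over all genes tested, and 14 of 32 were positive. Only Ppara, the fatty acid receptor that drives genes of fat oxidation, rose (0.44, SE 0.09, limma adjusted p = 0.0245), where 1.09% of all genes tested rose. It had 6.81, 7.10 and 7.15 in knockout exercised arrays, against 6.45, 6.57 and 6.28 in knockout sedentary arrays. It had 6.74, 7.01 and 7.16 in wild-type exercised arrays, against 6.65, 6.60 and 6.81 in wild-type sedentary arrays, which overlapped. Nr1d1, the clock repressor REV-ERBα, had the lowest value, -0.68, and did not pass (SE 0.17, limma adjusted p = 0.0641). Pparg was at 0.33 (SE 0.09, adjusted p = 0.0796), Thra at -0.21 and Rara at -0.19, and none of these passed. The RXR genes, whose products pair with NR4A1 and NR4A2, had values near 0, with Rxra at -0.06, Rxrb at 0.03 and Rxrg at 0.0029. Limma called 0 of the 3, and 0 had an unadjusted p under 0.05, where 11.2% of all genes did.

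**Figure D4:**
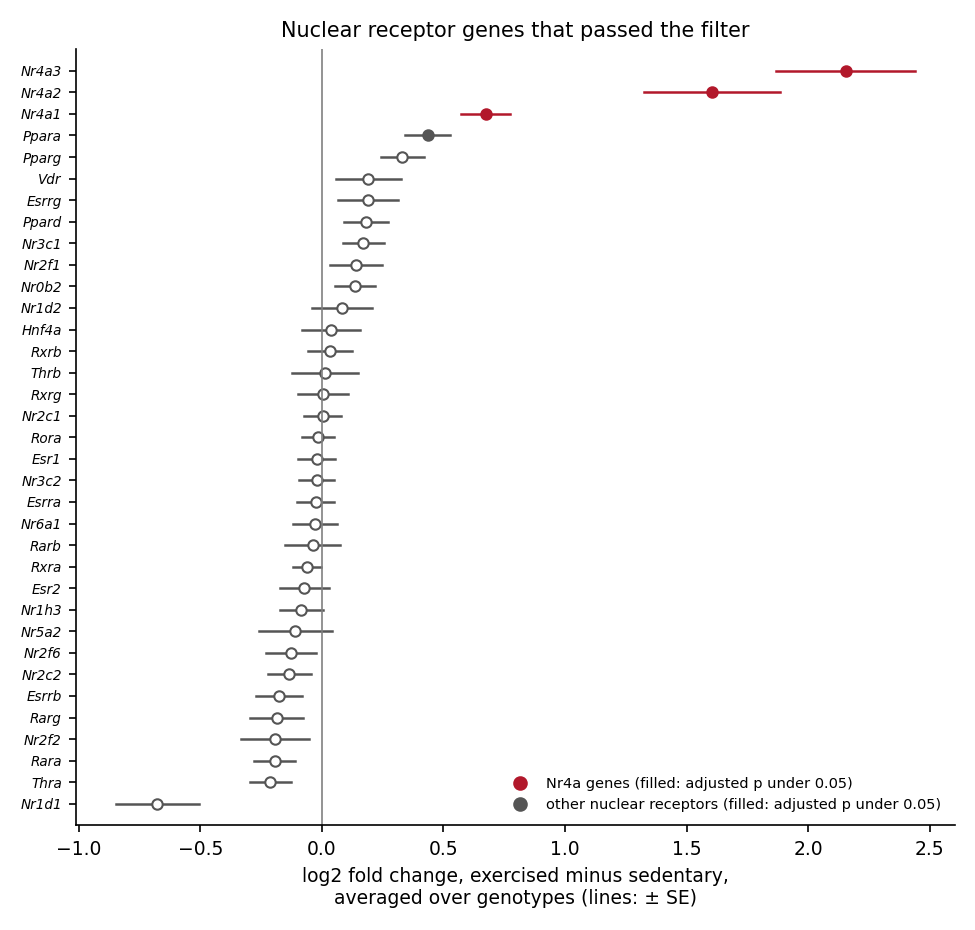
Log2 fold change of exercised over sedentary muscle averaged over genotypes (horizontal axis) for the 35 nuclear receptor genes that passed the filter, in order of value; lines give the SE, and filled points have a limma adjusted p under 0.05. Nr4a3 (2.15), Nr4a2 (1.60) and Nr4a1 (0.67) lie above Ppara (0.44), and the other receptors spread around 0.

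Upstream of the family, a list of 27 genes for CREB and its coactivators, MEF2, calcineurin and signalling kinases had 23 members tested. Of these 1 rose after exercise in the averaged effect and 0 fell, with a median of -0.05, where 1.09% of all genes tested rose. An unadjusted p under 0.05 was reached by 3 of the 23, near the share of 11.2% over all genes. The riser was Crem, which encodes a CREB relative and, from an internal promoter, the repressor ICER. It had 5.27, 5.43 and 5.21 in knockout exercised arrays, against 5.11, 5.01 and 5.06 in knockout sedentary arrays. It had 5.51, 5.46 and 5.41 in wild-type exercised arrays, against 5.06, 5.02 and 5.09 in wild-type sedentary arrays, and the averaged change was 0.32 (SE 0.08, limma adjusted p = 0.0451). Rcan1, the calcineurin inhibitor gene that calcineurin itself induces, was at 0.53 (SE 0.19, adjusted p = 0.253) and did not pass. Hdac4 (0.19), Camk4 (-0.23) and Crtc3 (-0.13) did not pass either.

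Of 14 other early genes that CREB is known to drive, 13 were tested. In the averaged effect 6 of these rose, 0 fell and 7 did not pass, where 1.09% of all genes tested rose. All 13 had positive values, with a median of 0.72, and 9 had an unadjusted p under 0.05, against 11.2% of all genes. Irs2, an insulin receptor substrate, rose by 1.49 (SE 0.10), the kinase gene Sik1 by 1.43 (SE 0.11), the antiproliferative gene Btg2 by 1.61 with an SE of 0.29, the clock gene Per1 by 0.88 (SE 0.13) and the transcription factor gene Nfil3 by 0.72 (SE 0.11), with limma adjusted p no higher than 0.0086. The stress factor gene Atf3 was the other riser, at 1.61 (SE 0.32, adjusted p = 0.0157). Atf3 and Junb are named to complete these counts, after their values were seen. In the knockout 2 of 13 rose, Sik1 and Irs2, where 0.24% of all genes tested did. In wild type 5 of 13 rose, Junb, Per1, Sik1, Irs2 and Nfil3, where 0.473% of all genes tested did. For the difference of effects limma called 0 of 13. An unadjusted p under 0.05 was reached by 3 of the 13, against 4.51% of all genes. Positive values were found for 2 of the 13, with a median of -0.26, against a median of 0.016 over all genes tested. This list was chosen with earlier results of these samples known, so its direction is not independent evidence.

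Of the genes that NR4A receptors are reported to control in rodent muscle, 2 of 19 tested rose 1 hour after exercise and 0 fell, where 1.09% of all genes tested rose. They form a glucose list and a lipid and mitochondrial list, also chosen with earlier results of these samples known. Their counts are therefore not independent evidence. In the glucose list, limma called 0 of 10 in the averaged effect, 1 had an unadjusted p under 0.05 (11.2% of all genes did), and the median was -0.01. Prkag3, the AMPK subunit gene of fast muscle, had the smallest unadjusted p, at -0.34 (SE 0.10, adjusted p = 0.114), followed by the muscle bisphosphatase gene Fbp2 (-0.17), the glycogen synthase gene Gys1 (-0.08), the enolase gene Eno3 (0.04) and the glycogen phosphorylase gene Pygm (-0.04). In the lipid and mitochondrial list 2 of 9 tested genes rose and 0 fell, with a median of 0.03. An unadjusted p under 0.05 was reached by 5 of the 9, against 11.2% of all genes. Ppargc1a, the coactivator of mitochondrial biogenesis, rose by 1.51 (SE 0.14, adjusted p = 2.78e-05) in the averaged limma fit. Lpin1, a phosphatidate phosphatase and coactivator, rose by 0.47 (SE 0.08, adjusted p = 0.005). It had 10.66, 10.67 and 10.75 in knockout exercised arrays, against 10.43, 10.26 and 9.98 in knockout sedentary arrays. It had 10.50, 10.79 and 10.79 in wild-type exercised arrays, against 10.23, 10.16 and 10.30 in wild-type sedentary arrays. Both genotypes were separated by exercise. Ucp3, the uncoupling protein of muscle, was at 0.42 (SE 0.16), Ppargc1b at -0.28 and the lipase gene Lipe at -0.16, and these did not pass.

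The genes whose profile over the 12 arrays was most like each member were found by Pearson's r among 12644 named genes. The arrays share the step from sedentary to exercised muscle, which every such r contains, so r is a description and carries no p. For Nr4a3 they were Hk2, the hexokinase of muscle (r = 0.969), the cell cycle kinase gene Wee1 (0.947), the phosphatase gene Ptpn12 (0.945), the phosphate transporter gene Slc20a1 (0.935) and Clic4 (0.932). For Nr4a2 they were the AP-1 factor gene Fosl2 (0.960), the zinc-finger factor gene Klf4 (0.940), the growth factor gene Hbegf (0.930), Gal3st1 (0.912) and the GTPase gene Rhob (0.912). For Nr4a1 they were Id3, an inhibitor of helix-loop-helix factors (0.966), Csrnp1 (0.947), Sik1 (0.938), Slc10a6 (0.929) and the pseudokinase gene Trib1 (0.925). No gene was among the 5 nearest of more than 1 member. Closest to the mean of the 3 members were Sik1 (0.961), Klf4 (0.959), Wee1 (0.947), Ptpn12 (0.946) and Hk2 (0.943).

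Hk2 had 10.67, 10.79 and 10.49 in knockout exercised arrays, against 9.50, 9.71 and 10.15 in knockout sedentary arrays. It had 10.48, 10.38 and 10.59 in wild-type exercised arrays, against 9.88, 9.76 and 10 in wild-type sedentary arrays. Like Nr4a3, it was highest among the sedentary arrays on knockout sedentary replicate 3. Fosl2 had 7.81, 7.91 and 7.77 in knockout exercised arrays, against 7.04, 6.77 and 7.28 in knockout sedentary arrays. It had 8.67, 7.78 and 8.28 in wild-type exercised arrays, against 7.04, 6.68 and 6.94 in wild-type sedentary arrays. Like Nr4a2, it was lowest of the wild-type exercised arrays on replicate 2 and highest on replicate 1. Id3 spanned only 5.81 to 6.44 over the 12 arrays, and its averaged change did not pass (0.30, SE 0.08, limma adjusted p = 0.101). Gal3st1 did not pass either (0.26, SE 0.11, limma adjusted p = 0.385), while the other 13 of these 15 genes rose in the averaged effect. Of all genes tested 1.09% rose. The 15 were picked on these same arrays for likeness to members that rose, so this count follows largely from the choice and is not separate evidence.

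**Figure D5:**
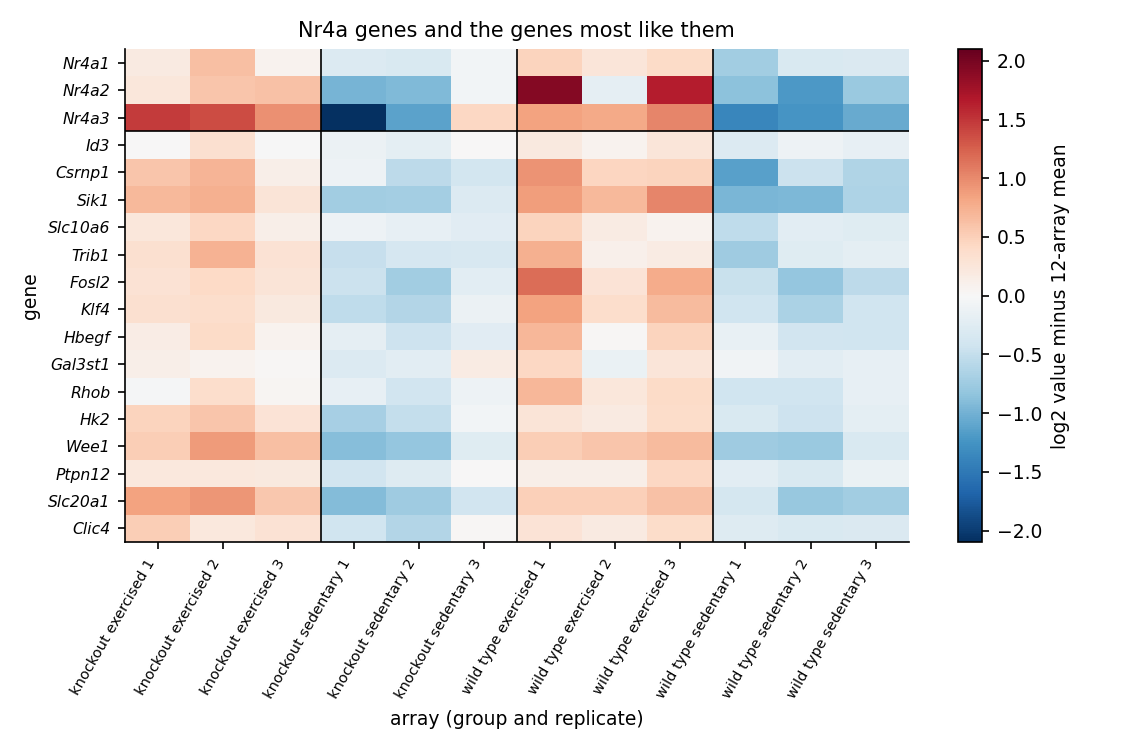
Log2 value minus the gene's mean over 12 arrays (colour scale) for the 3 Nr4a genes (top) and the 15 genes nearest to them by Pearson's r (below), by array (horizontal axis, grouped by genotype and exercise). Exercised columns are mostly above and sedentary columns mostly below the mean. Knockout sedentary replicate 3 lies above it for Nr4a3 (0.43), and by less for Gal3st1 (0.18), Clic4 (0.017), Ptpn12 (0.0098) and Id3 (0.0015). Wild-type exercised replicate 2 lies below it for Nr4a2 (-0.20) and Gal3st1 (-0.14).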

How the data were processed

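Total RNA of plantaris was labelled with biotin in a whole-transcript assay, per the labels' protocols, and Partek is the only program named in the submitters' processing notes. The deposited table holds log2 values, a scale inferred from the lowest and highest of them, 0.357 and 13.9. The background correction, normalization and summarisation are not given in the sources used here.

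Of 41345 rows, 23521 had 1 gene symbol in the platform annotation, 1814 several and 16010 none. The row with the highest mean stood for a gene, and a gene was tested if it exceeded the table's median of 4.56 in at least 3 arrays. A single fit of all 12 arrays in limma 3.58.1 (R 4.3.3; lmFit, eBayes with an intensity trend) had 1 mean per group and gave 7 contrasts. P-values are two-sided and adjusted by Benjamini-Hochberg over the 13747 genes tested, with calls at an adjusted p under 0.05. Here "rose" and "fell" are such calls. The members, 6 gene lists, 10 marker lists (1 of muscle fibre) and the rule for named genes (the members, 5 genes per list by p in the averaged exercise effect, and the 5 nearest genes by r) were chosen with earlier results of these data known. Sample numbers in the labels are unique, and replicates are numbered by their order. Promoter sequences are from RefSeq (GRCm38.p6), with a window for 3 of 3 members. Scripts were tested on simulated data.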

Additional observations from a re-analysis of the deposited data

How the results depend on the processing

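No paired analysis was possible because the labels give every array its own number and name no litter or batch. The averaged exercise effect on all 3 members passed with each array left out and under both filters, both rescalings, no intensity trend and the mean of all rows. Each member had 1 row, so neither the filters nor the mean of all rows could change its log2 values. They could change only the variance fit and the adjustment. The averaged effect failed without moderation of the variance (0.67 for Nr4a1, 1.60 for Nr4a2 and 2.15 for Nr4a3, adjusted p 0.0783, 0.157 and 0.0736), and for Nr4a2 also with a robust prior (1.60, adjusted p = 0.0599). In wild type, calls were lost without moderation (0.83, 2.07 and 2.11 for Nr4a1, Nr4a2 and Nr4a3) and with a robust prior (2.07 for Nr4a2 and 2.11 for Nr4a3, adjusted p = 0.16 for both). That of Nr4a2 was also lost with only the 2 groups in the fit (2.07, adjusted p = 0.0813) and without wild-type exercised replicate 1 and knockout sedentary replicate 3 together (1.67, adjusted p = 0.0509), an alternative added after the data were seen. The call of Nr4a3 in the knockout was lost without the intensity trend, with a robust prior, without moderation and with only the 2 groups in the fit (2.20 in each, adjusted p 0.0627 to 0.312). The cause was not tested.

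With 1 array left out, the log2 fold change in wild type ranged from 0.69 to 0.90 for Nr4a1, 1.67 to 2.73 for Nr4a2 and 2.04 to 2.19 for Nr4a3. In the knockout it ranged from 0.98 to 1.44 for Nr4a2, which passed without wild-type exercised replicate 2 (1.14, adjusted p = 0.0378), and from 1.615 to 2.88 for Nr4a3. The excess of Nr4a2 over Nr4a1 ranged from 0.75 to 1.23. Values that were not called changed sign in places. The difference of exercise effects on Nr4a3 (-0.50 to 0.77) was -0.50, -0.01 and -0.02 without knockout sedentary replicates 1 and 2 and knockout exercised replicate 1. Knockout against wild type at rest ranged from -0.012 to 0.45 for Nr4a2 and -0.39 to 0.87 for Nr4a3, and was -0.012 and -0.39 without knockout sedentary replicate 3, with or without wild-type exercised replicate 1. In exercised muscle it ranged from -0.24 to 0.034 for Nr4a1 (0.034 without knockout exercised replicate 3). Averaged over conditions it ranged from -0.0022 to 0.13 for Nr4a1, -0.51 to 0.023 for Nr4a2 and -0.0061 to 0.63 for Nr4a3, with the sign turned without knockout exercised replicate 2, wild-type exercised replicate 1 and knockout sedentary replicate 3, in that order, and -0.017 for Nr4a3 without the last 2 arrays together.

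Counts of called genes moved more. Without moderation they were 12 (main 78) for exercise in wild type, 0 (main 38; 1124 at an unadjusted p under 0.05) in the knockout and 67 (main 220) averaged. They were 1 (main 19) for the knockout effect at rest, 1 (main 24) in exercised muscle and 23 (main 75) averaged. Without the trend they were 24 for exercise in the knockout and 42 for genotype averaged. With only 2 groups in the fit they were 25 for exercise in the knockout and 13 for the knockout effect in exercised muscle, and without the 2 arrays above 46 for the latter and 140 for genotype averaged. With 1 array left out they ranged from 46 to 90 for exercise in wild type, 16 to 71 in the knockout and 144 to 222 averaged, and from 6 to 27, 5 to 44 and 38 to 149 for genotype at rest, in exercised muscle and averaged.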
